A study of Mus musculus with 4 samples.

Results

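The genes described here are 35 genes of glycolysis, glucose and lactate transport, pyruvate oxidation and the pentose phosphate pathway, taken from a fixed list of names. No rule on their values picked them, but the list was chosen with earlier results of these data known. Of the 35, 31 had a probe set (the group of probes that measures a transcript) with exactly 1 gene symbol and were measured, out of 19938 genes measured in this way. *Gpi1*, *Gapdh*, *Eno1* and *G6pdx* had no such probe set and are given no value. RNA of ILC87-Ik1-ER cells was measured on 4 Affymetrix Gene ST arrays of the mouse. In 2 samples the cells had received 100 nM 4-hydroxytamoxifen (4OHT) for 24 h, and in the other 2 only its vehicle, ethanol (EtOH), for as long. ILC87 is a single T-cell lymphoma line that arose in the thymus of a mouse in which Lck-cre, active in developing T cells, deletes the floxed Ikaros gene. Its strain is labelled C57BL/6, whereas the study's methods describe such mice as of mixed background, C57Bl/6 in part. Every sample, EtOH ones included, consisted of cells transduced with a retrovirus for Ik1-ER, a fusion of full-length Ikaros with the oestrogen receptor's ligand-binding domain, together with GFP, and sorted for GFP. 4OHT brings Ik1-ER into the nucleus, and the comparison asks how the mRNA levels of these genes differ 24 h after that. No array of 4OHT-treated cells without Ik1-ER was analysed here, so that effects of 4OHT and of Ik1-ER cannot be told apart.

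Glycolysis converts glucose to pyruvate in the cytosol. Hexokinases trap the sugar, phosphofructokinases commit it to the pathway, and the later enzymes return ATP. Pyruvate is then either reduced to lactate by lactate dehydrogenase and exported, or oxidized in mitochondria by the pyruvate dehydrogenase complex, which its kinases (Pdk) switch off. The pentose phosphate pathway branches off at glucose-6-phosphate and makes NADPH and ribose for nucleotides. Dividing T cells and T-cell tumours are known for high glucose uptake and lactate export, and the factors Hif1a and Myc are known activators of many of these genes. HIF binds DNA sites with the core ACGTG and Myc binds CACGTG, whereas AGGAA lies in the sites that Ikaros is known to bind.

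Promoters of 3 of these genes are printed because the results turn on them. *Hk2* has the largest difference between 4OHT and EtOH among the 31 measured genes of the list. *Bpgm* is the gene of the list with the lowest p among those higher in 4OHT, and *Slc16a3* differs most between the samples of each treatment. The sequences are RefSeq's, mouse build GRCm38.p6, from 250 bases before to 50 bases after the annotated start, at chr6:82774405-82774704 (minus strand) for *Hk2*, chr6:34476106-34476405 (plus strand) for *Bpgm* and chr11:120948817-120949116 (plus strand) for *Slc16a3*. They are written 5′ to 3′ on the strand of the gene, and capitals mark ACGTG in *Hk2* and *Slc16a3* and AGGAA in *Bpgm*, on either strand (read as CACGT and TTCCT on the other). The promoters to print were chosen after the values had been seen.
Hk2: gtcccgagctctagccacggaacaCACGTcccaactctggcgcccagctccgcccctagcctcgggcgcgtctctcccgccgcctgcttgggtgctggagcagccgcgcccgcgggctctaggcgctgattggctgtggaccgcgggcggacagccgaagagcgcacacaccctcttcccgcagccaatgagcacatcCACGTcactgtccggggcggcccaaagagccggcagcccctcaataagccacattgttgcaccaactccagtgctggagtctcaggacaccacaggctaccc
Bpgm: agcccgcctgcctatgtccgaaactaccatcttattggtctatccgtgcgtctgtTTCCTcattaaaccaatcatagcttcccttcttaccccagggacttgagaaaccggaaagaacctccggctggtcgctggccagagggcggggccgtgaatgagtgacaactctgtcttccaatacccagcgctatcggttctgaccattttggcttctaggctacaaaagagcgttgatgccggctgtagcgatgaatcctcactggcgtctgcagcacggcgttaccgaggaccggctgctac
Slc16a3: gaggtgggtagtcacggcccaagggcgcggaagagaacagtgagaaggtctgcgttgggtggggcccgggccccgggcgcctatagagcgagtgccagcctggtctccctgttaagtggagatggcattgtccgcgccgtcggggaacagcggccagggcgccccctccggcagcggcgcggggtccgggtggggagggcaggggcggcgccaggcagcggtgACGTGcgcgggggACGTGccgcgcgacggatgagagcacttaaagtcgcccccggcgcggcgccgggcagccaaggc
The *Hk2* window held 2 matches to ACGTG and the *Slc16a3* window 2, neither with AGGAA, and the *Bpgm* window held 1 match to AGGAA and 0 to ACGTG. Of the 35 genes, 34 had a window, all but *Slc2a3*, and together they had 49, some of which overlap. Searched on both strands, ACGTG was present in 44.9% of these 49 windows against 19.6% of all 32851 mouse windows of 300 bases, and CACGTG, every match of which is also a match to ACGTG, in 12.2% against 7.15%. AGGAA was present in 57.1% against 66.7%. AGGAA and CACGTG were searched first, and ACGTG was added after the values had been seen. A match says only that the letters are there, and the base composition of the windows was not compared.

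The deposited values are log2 expression values, normalized between arrays, and a difference of 1 is 2-fold. For each gene the difference between the mean of the 4OHT samples and the mean of the EtOH samples was tested by limma in a fit to all 35556 probe sets. Genes were called at a Benjamini-Hochberg adjusted p under 0.05. Each treatment has a sample 1 and a sample 2. No label ties them to separate cultures, and the p-values therefore reflect the spread between these samples alone, part or all of which may be technical. With 2 samples against 2, the smallest p an exact permutation test allows is 0.333 (two-sided). The array medians lay between 7.11 and 7.16. The T-cell markers had bright probe sets (11 of 12 listed were measured, with means from 8.75 to 13.1), whereas the means of the 6 measured B-cell markers did not exceed 6.75 and those of the 3 measured erythroid markers lay between 6.40 and 7.07. Markers moved with the treatment. Of the 11 T-cell markers *Cd2* and *Cd5* were called higher in 4OHT (log2 fold change 2.25 and 1.32) and *Cd3d* lower (−0.94), and 9 of the 11 had an unadjusted p under 0.05. Of the 6 stromal markers *Pdgfrb* was called lower in 4OHT (11.35 and 11.50 in EtOH, 9.54 and 9.46 in 4OHT). The other 5, none of them called, had log2 fold changes above 0, of 0.40 for *Dcn*, 0.39 for *Pecam1*, 0.26 for *Col1a1*, 0.06 for *Col1a2* and 0.05 for *Col3a1*, and for the first 3 of these the unadjusted p was under 0.05. Of the 8 myeloid markers *Lyz2* was called lower (log2 fold change −1.24) and *Itgam* higher (0.68). Summed over the list, the log2 values of the stromal markers were 50.3 and 50.004 in EtOH samples 1 and 2 and 49.2 and 49.5 in 4OHT samples 1 and 2, and those of the myeloid markers 51.5 to 52.1 in EtOH and 51.3 in both 4OHT samples. No marker was at 0, since these values have no true zero, and the part of these differences in the results for the glycolysis genes was not tested.

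None of the 31 measured glycolysis genes passed the test: 0 were called lower and 0 higher in 4OHT, against 2.99% and 1.23% of all genes. The lowest adjusted p among them was 0.0856 (limma). At an unadjusted p under 0.05, 6 were lower and 1 was higher (all genes, 11.7% and 8.74%). In 13 genes both 4OHT samples lay below both EtOH samples, and in 5 both lay above (all genes, 24.5% and 32.1%), while the groups overlapped in the other 13. The log2 fold change was below 0 for 23 genes and above 0 for 8, and over all 19938 genes for 8431 and 11507. *Pdk3* and *Pgd* turned to above 0 after a further quantile normalization, and *Slc2a1* to below 0 with equal array medians. The median log2 fold change was −0.11, against 0.03 over all genes. It moved between −0.18 (without EtOH sample 2) and −0.03 (without 4OHT sample 2) when 1 array was left out, and was −0.16 without 4OHT sample 1 and −0.09 without EtOH sample 1. The 95% interval of the log2 fold change lay within 2-fold either way for 25 of the 31, and reached past it for *Slc2a3*, *Slc16a3*, *Hk2*, *Pfkl*, *Pfkp* and *Pfkfb3*. In these bulk samples, fewer cells that express a gene and less mRNA per cell cannot be told apart.

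The call depended on which probe sets entered the fit. Over the 21789 probe sets with 1 gene symbol alone, 6 glycolysis genes were called lower and 1 higher (all genes, 8.72% and 5.03%), the same 7 that had an unadjusted p under 0.05 over all probe sets. Their adjusted p-values in that fit ran from 0.00394 for *Aldoc* to 0.0391 for *Pfkl*, with unchanged fold changes. The degrees of freedom that limma borrowed across probe sets were 8.438 in that fit and 2.664 over all probe sets. These 7 genes are given sample by sample.

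**Figure D1:**
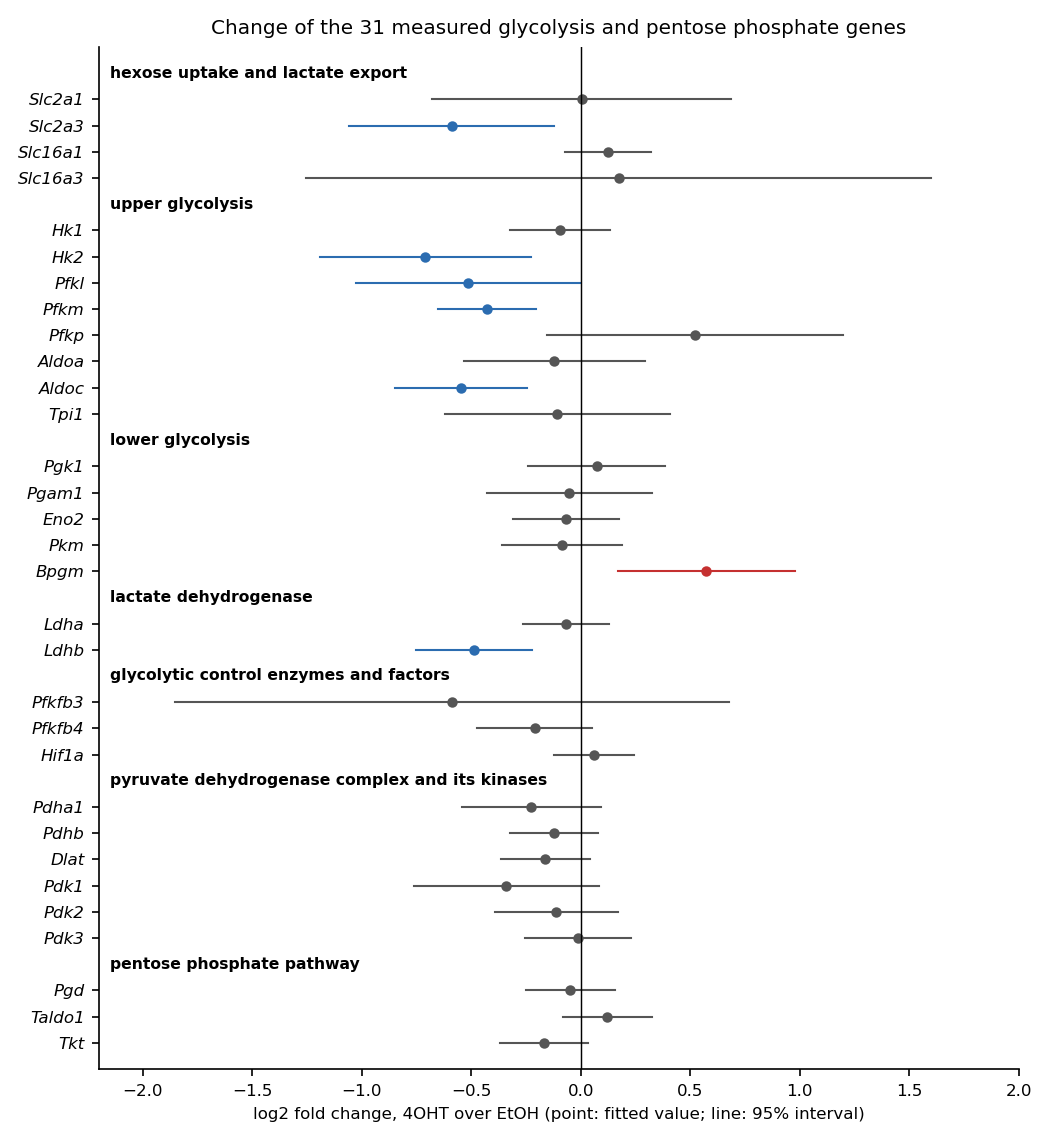
Log2 fold change of 4OHT over EtOH (x axis) for each of the 31 measured genes (rows, grouped by role), with points for the fitted value and lines for the 95% interval. Blue and red mark an unadjusted p under 0.05 for a lower (6 genes) or higher (1 gene) value, and no gene reached an adjusted p under 0.05; the widest interval is that of *Slc16a3*, from −1.25 to 1.60.

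Glucose uptake and trapping came first. *Hk2*, the inducible hexokinase that sits on mitochondria, read 8.98 and 8.52 in EtOH samples 1 and 2 and 8.15 and 7.92 in 4OHT samples 1 and 2. Both 4OHT samples lay below both EtOH samples, and sample 1 was the higher one in each treatment. The log2 fold change was −0.71 (SE 0.18, 95% interval −1.19 to −0.23, a 1.64-fold difference, n = 2 per treatment) with an adjusted p of 0.141 (limma). *Slc2a3*, a high-affinity glucose transporter, read 8.94 and 8.50 in EtOH and 8.24 and 8.02 in 4OHT. The pattern was that of *Hk2*, with no overlap between the groups and sample 1 higher in each. Its log2 fold change was −0.59 (interval −1.06 to −0.12, adjusted p = 0.188, limma). *Slc2a1*, the widely expressed glucose transporter, had no such difference: it read 11.44 and 10.96 in EtOH and 11.50 and 10.91 in 4OHT, with a log2 fold change of 0.005 and an interval from −0.68 to 0.69. *Hk1*, the constitutive hexokinase, read between 13.08 and 13.29 in the 4 samples with overlapping groups (log2 fold change −0.10). The *Hk1* value is uncertain, because this probe set carries no RefSeq mRNA in the annotation and several other probe sets pair *Hk1* with the ribosomal protein gene *Rpl17*. The *Hk1* probe set with a RefSeq mRNA had a log2 fold change of −0.13 and was not called either.

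The 3 phosphofructokinase genes, whose products join in tetramers and catalyse the committed step, did not read alike. *Pfkm*, the muscle-type subunit, read 10.19 and 10.06 in EtOH and 9.66 and 9.74 in 4OHT. The groups were well separated and the samples of each treatment lay close together. The log2 fold change was −0.43 (SE 0.09, interval −0.65 to −0.20, adjusted p = 0.0856, limma). *Pfkl*, the liver-type subunit, read 10.79 and 10.37 in EtOH and 10.25 and 9.88 in 4OHT. EtOH sample 2 and 4OHT sample 1 came near each other, and sample 1 was again the higher one in each treatment (log2 fold change −0.52, interval −1.03 to −0.01, adjusted p = 0.265, limma). *Pfkp*, the platelet-type subunit, read 9.66 and 8.96 in EtOH and 9.99 and 9.68 in 4OHT. Here 4OHT sample 2 was only just above EtOH sample 1, and the difference was above 0 (log2 fold change 0.52, interval −0.16 to 1.20, adjusted p = 0.369, limma). The log2 fold change was 0.18 without EtOH sample 2 and 0.87 without EtOH sample 1, but such fits leave the sample numbers unequal between the treatments. Between samples of the same number, 4OHT minus EtOH was 0.33 for sample 1 and 0.71 for sample 2. Whether the subunit genes differ from each other in their response was not tested.

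Of the aldolase genes, which split the phosphorylated hexose, *Aldoc* read 7.67 and 7.55 in EtOH and 7.19 and 6.93 in 4OHT. All 4OHT values lay below all EtOH values (log2 fold change −0.55, SE 0.12, interval −0.85 to −0.25, adjusted p = 0.0958, limma). *Aldoa*, the main aldolase of muscle and most dividing cells, overlapped between the treatments (log2 fold change −0.12), as did *Tpi1*, which interconverts the triose phosphates (−0.11). *Pgk1*, *Pgam1*, *Eno2* and *Pkm* encode phosphoglycerate kinase, phosphoglycerate mutase, an enolase and the pyruvate kinase of muscle and dividing cells. Their log2 fold changes lay between −0.09 and 0.07, and the treatments overlapped for each. *Pgk1* and *Pgam1* each had 3 probe sets with 1 symbol, of which 2 held identical values.

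*Bpgm* stood apart. It encodes bisphosphoglycerate mutase, the enzyme of a side branch best known from red cells, where its product lowers the oxygen affinity of haemoglobin. It read 8.36 and 8.18 in EtOH and 8.65 and 9.03 in 4OHT, and 4OHT sample 2 was clearly the highest. The log2 fold change was 0.57 (SE 0.15, interval 0.17 to 0.98, adjusted p = 0.151, limma). The 3 measured erythroid markers, *Epor*, *Klf1* and *Alas2*, had log2 fold changes of 0.03, −0.05 and 0.13, none of them called, and their log2 values summed to 20.1 and 20.3 in EtOH and 20.3 and 20.3 in 4OHT.

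Lactate dehydrogenase is a tetramer of A and B subunits. *Ldhb*, the heart-type subunit, read 10.40 and 10.23 in EtOH and 9.76 and 9.90 in 4OHT. The groups did not overlap, and the samples of each treatment lay within 0.17 of each other. Its log2 fold change was −0.49 (SE 0.10, interval −0.75 to −0.22, adjusted p = 0.0932, limma), and a second probe set of the gene gave −0.43 with an adjusted p of 0.0766 (limma). *Ldha*, the muscle-type subunit, read 13.62 and 13.55 in EtOH and 13.54 and 13.49 in 4OHT, so that its groups were only just apart (log2 fold change −0.07, interval −0.26 to 0.13). For lactate export, *Slc16a1* (monocarboxylate transporter) read 12.11 and 12.16 in EtOH and 12.23 and 12.30 in 4OHT (log2 fold change 0.12, adjusted p = 0.444, limma).

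**Figure D2:**
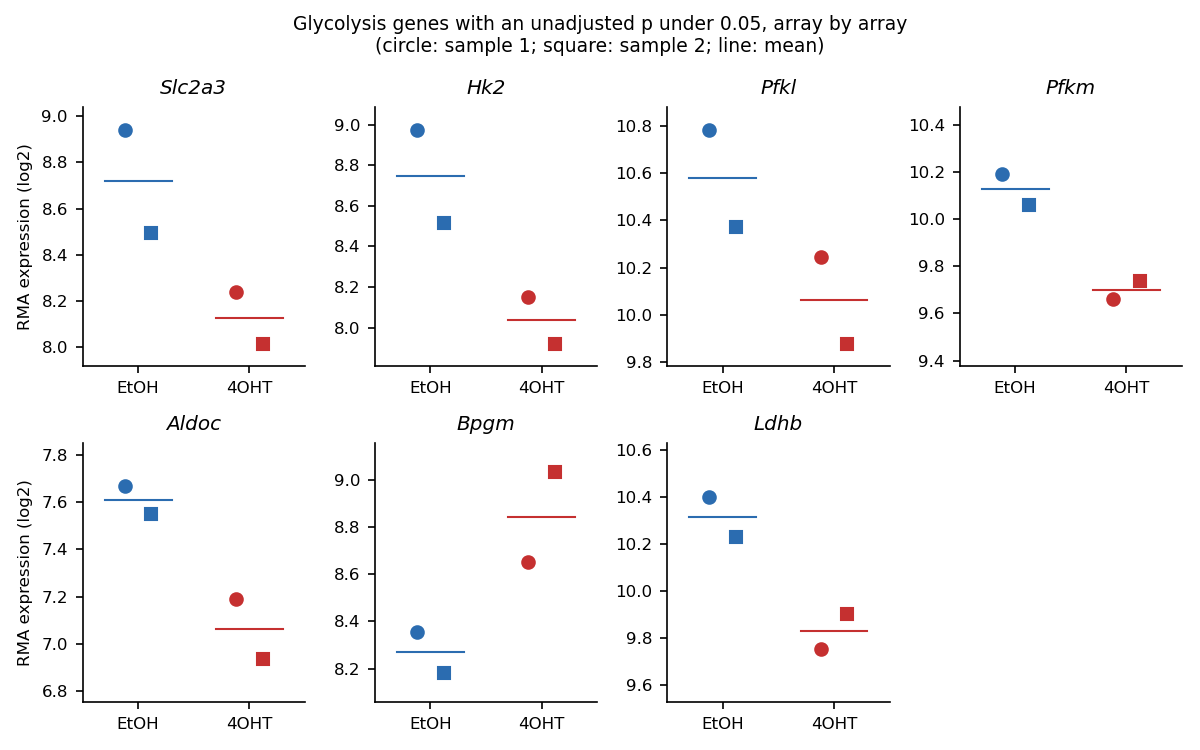
Normalized log2 expression (y axis, a separate range in each panel that does not start at 0) of the 7 glycolysis genes with an unadjusted p under 0.05, in EtOH (blue) and 4OHT (red) samples. Circles are sample 1, squares sample 2 and lines the mean of each treatment; in *Hk2*, *Slc2a3* and *Pfkl* the circle lies above the square in both treatments, and in *Bpgm* 4OHT sample 2 reaches 9.03.

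Of the genes that control the pathway, *Hif1a*, the oxygen-regulated subunit of hypoxia-inducible factor (HIF), hardly varied, with 11.72 and 11.73 in EtOH and 11.80 and 11.77 in 4OHT (log2 fold change 0.06, interval −0.12 to 0.24). *Pfkfb3* and *Pfkfb4* make or remove the phosphorylated fructose that activates phosphofructokinase. For *Pfkfb4* the log2 fold change was −0.21, at an adjusted p of 0.355 (limma). *Pfkfb3* read 9.14 and 8.27 in EtOH and 8.70 and 7.53 in 4OHT, and its interval, −1.85 to 0.68, left the difference unresolved. Without 4OHT sample 2 the log2 fold change was −0.0014, and without 4OHT sample 1 it was −1.17. These fits, too, leave the sample numbers unequal between the treatments. Between samples of the same number, 4OHT minus EtOH was −0.43 for sample 1 and −0.74 for sample 2.

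All 6 genes of the pyruvate dehydrogenase complex and its kinases had a log2 fold change below 0, as had 8431 of all 19938 genes, and none was called. *Pdk3* turned to above 0 after a further quantile normalization (0.0338), without EtOH sample 2 (0.0813) and without 4OHT sample 2 (0.0005). *Pdha1*, *Pdhb* and *Dlat* encode subunits of the complex and had log2 fold changes of −0.23, −0.12 and −0.16, and in all 3 both 4OHT samples lay below both EtOH samples. The same held for *Pdk1*, the HIF-responsive kinase, at −0.34 (interval −0.76 to 0.08, adjusted p = 0.352, limma), but not for *Pdk2* (−0.11) and *Pdk3* (−0.01). Over all genes it held for 24.5%. In the pentose phosphate pathway *Pgd*, the second NADPH-producing enzyme, *Taldo1* (transaldolase) and *Tkt* (transketolase) had log2 fold changes of −0.05, 0.12 and −0.17, with adjusted p-values of 0.778, 0.474 and 0.341 (limma).

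A difference that ran with the sample number was seen in several of these genes. In some of them 4OHT minus EtOH also had the same sign for both sample numbers, but none was called between the treatments. Within samples 1 and 2, 4OHT minus EtOH was −0.54 and −0.49 for *Pfkl*, −0.43 and −0.74 for *Pfkfb3*, and 0.33 and 0.71 for *Pfkp*. *Slc16a3*, the lactate exporter of highly glycolytic cells, read 10.08 in EtOH sample 1 and 10.34 in 4OHT sample 1, but 9.01 in EtOH sample 2 and 9.10 in 4OHT sample 2. Sample 1 was therefore above sample 2 by 1.08 in EtOH and by 1.24 in 4OHT, whereas the log2 fold change between the treatments was 0.17 (interval −1.25 to 1.60). In *Pfkfb3* the same differences were 0.86 and 1.17, and in *Slc2a1* 0.48 and 0.60. Counted at a difference of at least 0.3 in both treatments, a rule set after the values had been seen, sample 1 was higher in 6 of the 31 genes (*Slc16a3*, *Pfkfb3*, *Slc2a1*, *Pfkp*, *Pfkl* and *Tpi1*), against 0.16% of all genes. The reverse held for 0 of the 31 and 0.0401% of all genes. *Pdk1* fell just short of the rule, at 0.2998 in EtOH and 0.33 in 4OHT. The count was 7 after a further quantile normalization and 5 with equal array medians. The labels do not say what samples of 1 number shared, and the 31 genes share the same 4 arrays.

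Of 16 measured HIF targets outside glycolysis, 4 met the same rule, all with sample 1 higher, and 12 did not. *Bnip3*, which marks mitochondria for removal, read 9.72 in EtOH sample 1 and 9.75 in 4OHT sample 1, but 8.41 in EtOH sample 2 and 8.63 in 4OHT sample 2. *Bhlhe40*, a transcriptional repressor, differed by 1.02 in EtOH and 0.94 in 4OHT. *Vegfa*, the angiogenic factor, differed by 0.54 and 0.48, and *P4ha1*, a collagen prolyl hydroxylase subunit, by 0.32 and 0.51. *Ddit4*, an inhibitor of mTOR signalling, fell just short, at 0.62 and 0.2999. Brighter targets were among the 12 as well. *Bnip3l* differed by 0.07 and 0.09, *Tfrc* by 0.08 and −0.13 and *Mxi1* by 0.09 and −0.02, with EtOH means of 12.58, 10.90 and 8.85. *Ankrd37* (0.74 and 0.08) and *Higd1a* (0.45 and −0.08) had such a difference in EtOH alone. *Car9*, a carbonic anhydrase, differed by −0.01 and 0.07, and it was the dimmest of the 16, between 5.38 and 5.45. Differences are compressed in such dim probe sets, but whether this had a part in the *Car9* values was not tested. *Hif1a* itself differed by −0.01 in EtOH and 0.03 in 4OHT. Of the other glycolysis and glucose uptake genes, *Pgm1* (phosphoglucomutase) met the rule, at 0.44 and 0.35. The log2 fold change of *Pgm1* between the treatments was −0.84 (interval −1.36 to −0.33, adjusted p = 0.116, limma), and it was not called. Both matches in the *Slc16a3* promoter window had ACGTG on the gene's own strand near its start, the 2 *Pfkfb3* windows held 2 and 1 matches and the *Slc2a1* window 1, while those of *Pfkl*, *Pfkp* and *Tpi1* held 0. Of all 49 windows of the glycolysis genes 44.9% held ACGTG, and a tie between the motif and the sample number was not tested.

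**Figure D3:**
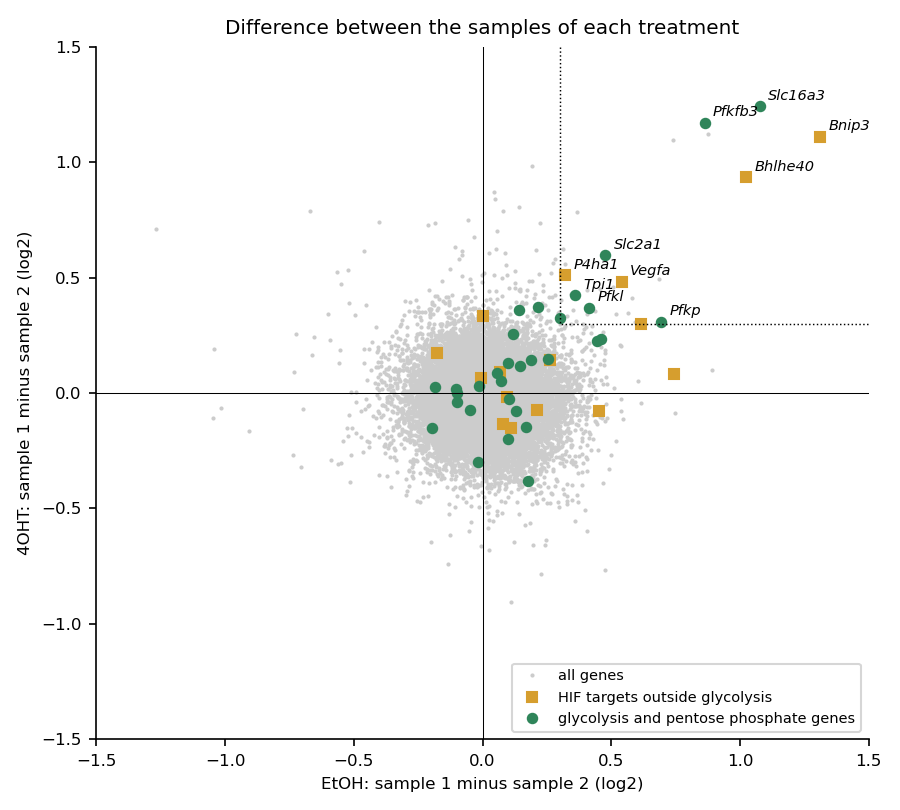
Difference between sample 1 and sample 2 (log2) in EtOH (x axis) and in 4OHT (y axis) for all 19938 genes (grey), the 31 glycolysis genes (green circles) and 16 HIF targets outside glycolysis (orange squares); dotted lines mark 0.3 in both. *Slc16a3*, *Pfkfb3*, *Bnip3* and *Bhlhe40* lie far in the upper right corner, where sample 1 is higher in both treatments.

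Genes next to these pathways were taken from lists of 78 genes, of which 74 were measured. In 4OHT 6 of the 74 were called lower and 0 higher, against the 2.99% and 1.23% of all genes. Gluconeogenesis, which runs the irreversible steps of glycolysis backwards, held 3 of the 6 among its 7 measured genes. *Fbp1*, the fructose bisphosphatase that opposes phosphofructokinase, read 11.47 and 11.69 in EtOH and 10.42 and 10.19 in 4OHT. It fell by 1.28 on the log2 scale (SE 0.12, interval −1.60 to −0.95, a 2.43-fold difference, adjusted p = 0.0206, limma). *G6pc3*, a widely expressed subunit of glucose-6-phosphatase, which opposes hexokinase, fell from 9.99 and 10.13 to 9.21 and 9.25 (log2 fold change −0.83, adjusted p = 0.0223, limma). *Pck2*, the mitochondrial phosphoenolpyruvate carboxykinase, fell from 9.53 and 9.52 to 9.03 and 8.91 (−0.56, adjusted p = 0.0437, limma). In all 3 the groups lay far apart compared with the distance between samples of a treatment. The other measured members of these families, *Fbp2*, *G6pc* and *Pck1*, were not called, with log2 fold changes of 0.05, 0.09 and 0.14. The remaining measured gene of the list, *Pcx*, was not called either, at −0.26 (unadjusted p = 0.0206, adjusted p = 0.178, limma).

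Of 15 regulators of the oxygen and glucose response, 2 were called. *Epas1*, the paralogue of *Hif1a* that also pairs with Arnt, fell from 8.86 and 8.99 in EtOH to 7.86 and 7.92 in 4OHT (log2 fold change −1.04, interval −1.25 to −0.82, adjusted p = 0.0156, limma). *Myc* fell from 12.51 and 12.50 to 11.94 and 12.04 (−0.52, adjusted p = 0.0477, limma). The samples of each treatment lay within 0.13 of each other in both genes. *Arnt*, the HIF partner subunit, *Vhl*, which targets HIF for degradation, *Egln1*, the oxygen sensor that marks HIF for Vhl, and *Txnip*, an inhibitor of glucose uptake induced by glucose, were not called (log2 fold changes 0.04, −0.14, 0.04 and 0.21). Among the HIF targets outside glycolysis the 1 called gene was *Ndrg1*, a stress-responsive gene, which fell from 11.60 in both EtOH samples to 10.30 and 9.97 in 4OHT (−1.47, adjusted p = 0.0172, limma). *Ndrg1* was not among the 4 targets that differed by sample number: its EtOH samples differed by 0.003 and its 4OHT samples by 0.33.

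**Figure D4:**
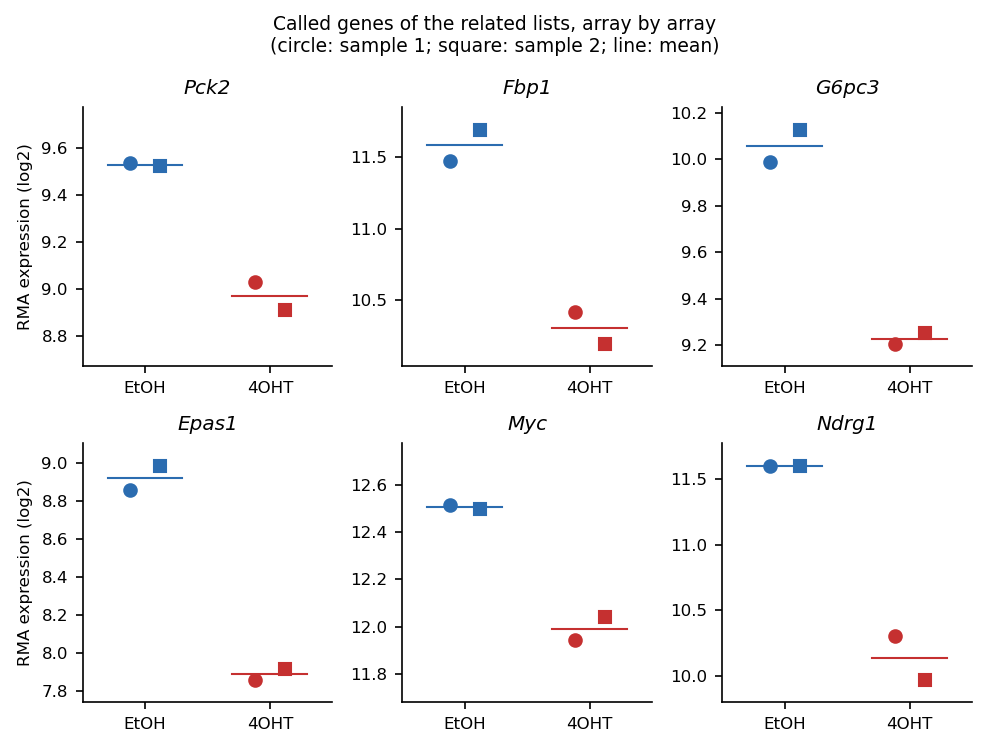
Normalized log2 expression (y axis, a separate range in each panel that does not start at 0) of the 6 called genes of the neighbouring lists in EtOH (blue) and 4OHT (red) samples, with circles for sample 1, squares for sample 2 and lines for the mean of each treatment. Both 4OHT samples lie below both EtOH samples in every panel, by the widest margin in *Ndrg1*.

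No gene was called among the 22 other glycolysis and glucose uptake genes, the 7 other pyruvate oxidation genes and the 7 other pentose phosphate genes that were measured. At an unadjusted p under 0.05, 4, 1 and 1 of these were lower and 1, 0 and 0 higher (all genes, 11.7% and 8.74%). The 6 calls of the neighbouring lists rested on all 4 arrays: 0 were made without EtOH sample 1, 0 without EtOH sample 2, 2 without 4OHT sample 1 (*Fbp1* and *Ndrg1*) and 1 without 4OHT sample 2 (*Ndrg1*), with every log2 fold change of the 6 still below 0. After a further quantile normalization *Pck2* and *Myc* lost their calls, at adjusted p-values of 0.0547 and 0.0545 (limma).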

How the data were processed

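Total RNA (150 ng per sample) was labelled and hybridized to the 4 arrays. The deposited values are log2 expression values that the authors made with Affymetrix Expression Console 1.1 and RMA, per the submitters' processing notes: RMA corrects the background, gives all arrays 1 distribution and summarises probes into 35556 probe sets. A change common to most genes is invisible after this step, and differences of dim probe sets are compressed. No source used here gives the genome build of the probe sets, the values carry no detection calls, and only 4 arrays set the precision.

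Treatments came from the labels. For 4OHT against EtOH, limma 3.58.1 (R 4.3.3) was fitted with lmFit and a two-sided eBayes test, without filter, block or trend, with Benjamini-Hochberg adjustment over all probe sets, 2 residual degrees of freedom and 95% intervals. Names came from the array annotation: 21789 probe sets had 1 symbol, 1621 several and 12146 none, and 21698 symbols were updated by Entrez number through RefSeq (GRCm38.p6). Each gene took its single-symbol probe set with the highest mean. Genes given sample by sample were those called, those of the 31 with an unadjusted p under 0.05, and all called genes of the neighbouring lists, in which *Myc*, *Arnt*, *Vhl*, *Egln1* and *Txnip* were to be named whatever their result; the sample-number genes, *Car9*, *Ddit4* and other named genes were chosen after their values were seen. The genes and lists were chosen with earlier results of these data known, and the lists were given no test as sets. The alternatives were a further quantile normalization, equal medians, a block for the sample number, a minimum mean of 6, single-symbol probe sets alone, an intensity trend, averaged probe sets of a gene, other thresholds and leaving out each array. Chosen after seeing the data were the RefSeq probe set of *Hk1*, crossed sample numbers, and the same alternatives for the neighbouring lists and the sample-number count. The scripts were tested on simulated data. Promoters and motifs were read with Python 3.11.15.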

Additional observations from a re-analysis of the deposited data

How the results depend on the processing

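The precision is limited by 2 arrays per treatment. No glycolysis gene was called in either direction under the block, both normalizations, the minimum of 6, the trend, the mean of probe sets, a threshold of 0.01 or with any array left out. The exceptions were the fit over single-symbol probe sets and a threshold of 0.1. The first gave 6 lower and 1 higher (all genes, 8.72% and 5.03%). The second gave 3 lower and 0 higher (all 19938 genes, 1076 and 502). The median log2 fold change stayed between −0.180 and −0.032 with 1 array left out. It thus moved by at most 0.0755, while the median over these genes of an array's deviation from the group mean had an SD of 0.0917. In the neighbouring lists the count of genes called lower, 6, became 10 over single-symbol probe sets, 0 at a threshold of 0.01 and 0 to 2 with 1 array left out, and the count called higher stayed 0. Leaving out an EtOH array left 0 calls among all genes, where an unadjusted p under 0.05 was reached by 2819 (without sample 1) and 2586 (without sample 2); such a fit takes the spread of the treatment with 1 array from the other treatment.

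With the sample number as a replicate block, 1 residual degree of freedom remains. In that fit 0 glycolysis genes were called lower and 0 higher, and 0 in the neighbouring lists. Among all genes the calls fell from 597 lower and 246 higher to 25 and 5. Genes with an unadjusted p under 0.05 (limma) rose from 7 to 10 among the 31 glycolysis genes, but fell from 4069 to 3275 among all genes. The labels do not say what a number marks, and it was used here as a name only. Across genes, which are not independent replicates, the differences between samples 1 and 2 in EtOH and in 4OHT correlated at r = −0.13 over all 35556 probe sets, but at r = 0.83 over the 31 glycolysis genes and 0.75 over the 16 HIF targets. With crossed numbers as the block, 389 genes were called lower and 146 higher, 0 of the 31 and 4 of the neighbouring genes lower.

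Single log2 fold changes near 0 changed sign. With 1 array left out the sample numbers are unequal between the treatments, so that a difference by number enters such values. A further quantile normalization gave 0.0338 for *Pdk3* and 0.0014 for *Pgd*, and equal array medians gave −0.0173 for *Slc2a1*. With 1 array left out the values ran from −0.32 to 0.11 for *Tpi1*, −0.23 to 0.13 for *Pgam1*, −0.14 to 0.00546 for *Eno2*, −0.18 to 0.00784 for *Pkm*, −0.29 to 0.30 for *Slc2a1*, −0.45 to 0.80 for *Slc16a3*, −0.0551 to 0.20 for *Pgk1*, −0.10 to 0.0813 for *Pdk3*, −0.10 to 0.00176 for *Pgd*, −0.31 to 0.065 for *Aldoa* and −0.18 to 0.26 for *Egln1*. Others kept their sign but moved by over 1.5 times: the values ran from −0.81 to −0.37 for *Slc2a3*, −0.72 to −0.31 for *Pfkl*, 0.18 to 0.87 for *Pfkp*, −1.17 to −0.0014 for *Pfkfb3*, −0.50 to −0.18 for *Pdk1* and −0.38 to −0.08 for *Pdha1*, and the smaller ones of *Hk1*, *Ldha*, *Pdhb*, *Pdk2*, *Pfkfb4*, *Taldo1*, *Arnt* and *Txnip* moved by over 1.5 times as well.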
